A study of Sus scrofa domesticus with 2 samples.

Results

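The genes described here were 9 genes of the lysosome and its cathepsins, *CTSS*, *CTSH*, *CTSB*, *CTSD*, *CTSL*, *CTSK*, *LGALS3*, *GRN* and *LAPTM5*, measured by single-cell RNA-seq (10x Genomics 3′ v3 chemistry) in primary endothelial cells (ECs) cultured from the lung and from the aorta of the domestic pig. Of the 9, 8 were measured by name among the 22804 genes of the count matrices, while *CTSK*, a collagen-degrading cathepsin best known from bone, was not analysed here. The list was selected on measured levels, since it was proposed with the levels of these genes in the same 2 libraries in view, so all levels below are a description and carry no test. There was 1 library per tissue, and neither was treated. The lung cells were released by collagenase digestion after perfusion of a lung lobe and the aorta cells by filling a closed piece of aorta near the lung with digestion buffer. Both were grown in a medium with 10% fetal calf serum, called PAEC medium. The labels do not give the number, age or sex of the pigs, nor passage number, and the isolation protocols name no sort for ECs.

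Lysosomes are acidic organelles that break down proteins, lipids and glycans taken up by the cell or delivered by autophagy. Cathepsins are their proteases. Most are cysteine proteases (*CTSB*, *CTSL*, *CTSS*, *CTSH*), whereas *CTSD* encodes an aspartic protease, and cathepsin S is best known for trimming the invariant chain in antigen-presenting cells. Macrophages are rich in lysosomes, and ECs use theirs in the turnover of endocytosed material. Among the other genes, *GRN* encodes progranulin, a secreted glycoprotein that is delivered to lysosomes and cut into granulins there. *LGALS3* encodes galectin-3, a lectin made in the cytosol without a signal peptide, and *LAPTM5* a lysosomal membrane protein described mainly in blood cells.

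The aorta library held 1185 cells and 46080859 UMIs (unique molecular identifiers, each standing for 1 captured transcript), and the lung library 5946 cells and 57213236 UMIs. With the limits of the study's methods (more than 200 and fewer than 5000 detected genes, under 30% mitochondrial UMIs), 246 aorta and 5683 lung cells were kept, with medians of 4691 and 9453 UMIs. The upper limit on genes removed the deep aorta cells, and 110 of the 246 kept (44.7%) had under 1% mitochondrial UMIs, against 39 lung cells. Aorta values are therefore also given with no upper limit (955 cells, median 52080 UMIs). The 2 libraries shared 5 barcodes among all cells and 0 among the kept cells. Cells were put in classes by the markers of their cluster, with the members and all markers left out of the clustering. Endothelial-like cells numbered 4912 in lung and 159 in aorta (617 with no upper limit). Collagen-high cells were those of clusters with raised *COL1A1*, *COL1A2* and at least 1 more of 8 fibroblast markers. They numbered 324 in lung and 21 in aorta (130 with no upper limit). With no upper limit, 113 aorta cells (median 3282 UMIs) lay in unnamed clusters, and the 617 do not contain all of the 159. The median depth was 5625 UMIs in the 159 and 54922 in the 617. Levels are counts per 1000000 UMIs (CPM) of the UMIs summed over a class, with exact Poisson 95% intervals, and ratios of 2 levels have exact binomial 95% intervals. These intervals cover counting error only, and nothing measures the spread between animals or cultures. A gene was called higher or lower at a 2-fold ratio or more where it reached 20 CPM in 1 of the 2 classes.

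The regions before *LAPTM5* and *CTSS* are shown because these members were lower in the collagen-high cells of both tissues. On the pig assembly Sscrofa11.1, *LAPTM5* lies at chr6:87363911-87390371 and *CTSS* at chr4:98415273-98442952, the latter close to *CTSK* at chr4:98389459-98404969. The 250 bases before the RefSeq start of each gene are given on the strand of the gene, 5′ to 3′. They were read from chr6:87390372-87390621 (minus strand) and chr4:98415023-98415272 (plus strand). Capitals mark the E-box CACGTG, the core bound by the MiT/TFE factors that switch on many lysosomal genes.
LAPTM5: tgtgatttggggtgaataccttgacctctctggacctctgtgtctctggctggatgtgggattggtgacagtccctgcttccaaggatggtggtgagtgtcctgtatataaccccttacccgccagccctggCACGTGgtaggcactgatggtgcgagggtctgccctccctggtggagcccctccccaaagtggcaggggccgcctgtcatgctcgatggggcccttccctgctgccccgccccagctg
CTSS: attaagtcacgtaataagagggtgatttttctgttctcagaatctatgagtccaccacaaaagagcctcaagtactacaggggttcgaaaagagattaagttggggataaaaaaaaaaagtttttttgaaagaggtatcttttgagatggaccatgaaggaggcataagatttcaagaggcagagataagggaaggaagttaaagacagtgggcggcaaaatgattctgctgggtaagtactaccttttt
The *LAPTM5* window had 62% G and C and that of *CTSS* 38.4%. The E-box began 118 bases before the start of *LAPTM5* and was in none of the other 8 windows, against 6.16% of the 20664 windows of protein-coding genes. The longer motif TCACGTGA, which contains the E-box and is the centre of the motif shared by lysosomal genes, was found before 0 of the 9 genes and in 0.711% of all windows. The motif GAGGAAGT, 1 form of the sites bound by ETS factors, was before 0 of the 9 genes and in 1.62% of all windows. Shorter or other ETS sites were not searched for. Both strands were searched. RefSeq starts need not be those used in these cells, and no binding was measured.

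In endothelial-like cells, all 8 genes were detected in both libraries. In lung endothelial-like cells *LAPTM5* was at 351 CPM (346 to 356), and 94.1% of the cells (93.4 to 94.7) had a UMI of it. The level in aorta was 381 CPM (349 to 416), or 338 CPM with no upper limit. *CTSB*, a broadly expressed endo- and exopeptidase, was at 247 CPM in lung and 392 CPM in aorta, and *CTSD* at 164 and 201 CPM. *LGALS3* was at 144 and 95.5 CPM, *GRN* at 109 and 130.0 CPM and *CTSH*, an aminopeptidase, at 96.1 and 139 CPM. *CTSS* was at 40.2 CPM in lung and 51.1 CPM in aorta, and *CTSL*, an endopeptidase, at 14.0 and 33.1 CPM. These are levels of 3′ tags and were not corrected for length, so they were compared between classes and not between genes.

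Between the 2 tissues, *CTSL* was the 1 member past 2-fold. It was lower in lung than in aorta endothelial-like cells, with a ratio of 0.423 (0.312 to 0.587), and of 0.397 (0.361 to 0.436) with no upper limit on the aorta. Of all 6078 genes that could be called, 6.2% were lower and 3.34% higher in lung, and with no upper limit 3.1% and 1.25%. With 30 principal components in place of 20, which left 70 aorta endothelial-like cells, the *CTSL* ratio was 1.46, and *CTSB* and *CTSD* were higher in lung, with ratios of 2.25 and 2.86. With 20 components, the other 7 members stayed within 2-fold in both forms of the aorta library. *LGALS3* was the 1 member with a ratio above 1 in both, 1.5 (1.26 to 1.81) and 1.39 (1.34 to 1.45). *CTSB* had a ratio of 0.631 under the limit and 0.828 without it, and *LAPTM5* of 0.921 and 1.04. The median ratio of the members was 0.801, against 0.993 over all genes called on. Other lysosomal genes gave few calls. Of 14 subunits of the proton pump that acidifies the lysosome (V-ATPase), 0 were past 2-fold, and of 8 lysosomal membrane proteins 0. Of 13 genes of the interferon response, 9 were lower in lung than in aorta, and 0 higher. Their part in the *CTSL* ratio was not tested.

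*CTSL* calls for care over its name. The feature counted as *CTSL* had only an Ensembl identifier and took its symbol from a table of gene names, and RefSeq lists CTSL among the synonyms of the pig gene *CTSV*, a close paralog. The feature named *CTSV* was at 209 CPM in lung and 159 CPM in aorta endothelial-like cells, with a ratio of 1.32 (1.15 to 1.51), and of 0.931 (0.904 to 0.959) with no upper limit, so it did not share the 2-fold difference of *CTSL*. What became of reads that fit both genes cannot be seen from the counts.

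**Figure D1:**
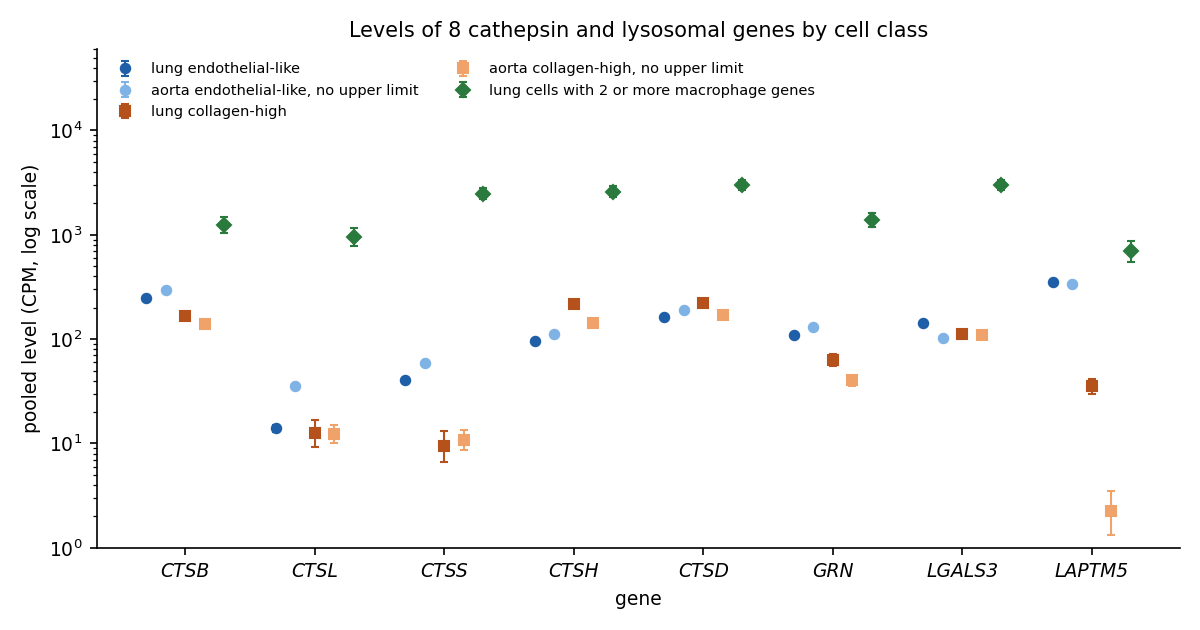
Pooled level (CPM, log axis) of the 8 measured genes in lung and aorta endothelial-like cells, lung and aorta collagen-high cells (aorta with no upper limit on detected genes) and the 16 lung cells with UMIs of 2 or more macrophage genes, with bars for 95% Poisson intervals. LAPTM5 lies at 351 and 338 CPM in the endothelial-like classes and at 35.3 and 2.24 CPM in the collagen-high classes, while the 16 cells lie highest for each gene.

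*LAPTM5* separated endothelial-like from collagen-high cells in both libraries. In the aorta with no upper limit, it had 18 UMIs in the 130 collagen-high cells, 2.24 CPM (1.33 to 3.54), against 338 CPM (332 to 345) in endothelial-like cells, a ratio of 0.00662 (0.00392 to 0.0105). Under the limit it had 0 UMIs in 21 collagen-high cells. A count of 0 allows up to 16.1 CPM there (3 counts), which put the level at least 23.7-fold lower than in endothelial-like cells. That value under the limit depended on how the 246 cells were split, and with 30 principal components (101 collagen-high and 70 endothelial-like cells) the *LAPTM5* ratio was 1.51. The ratio was less extreme in lung, 0.101 (0.0841 to 0.120), with 35.3 CPM in collagen-high against 351 CPM in endothelial-like cells. Lung collagen-high cells also held more endothelial transcripts. *PECAM1*, the adhesion molecule CD31 of ECs, was at 155 CPM in lung collagen-high cells and at 1596 CPM in lung endothelial-like cells, against 14.4 and 1289 CPM in the aorta with no upper limit. In the 209 lung collagen-high cells without a *PECAM1* UMI, *LAPTM5* was at 8.06 CPM (4.70 to 12.9), a ratio of 0.0230 to endothelial-like cells, and in the 115 with a *PECAM1* UMI at 71.9 CPM (59.3 to 86.5), with median depths of 10123 and 12544 UMIs. No macrophage-transcript cell was in these classes, and *PTPRC*, *AIF1* and *C1QB* had 0 UMIs in them by construction.

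*CTSS* was also lower in collagen-high cells. It was at 9.51 CPM against 40.2 CPM in lung, a ratio of 0.236 (0.164 to 0.330), and at 10.8 against 59.4 CPM in aorta with no upper limit, a ratio of 0.182 (0.145 to 0.226). Only 3 UMIs lay behind the aorta level under the limit, where the ratio was 0.315 (0.0634 to 0.960), and 0.796 with 30 principal components. In lung the ratio was 0.212 without the cells that had a *PECAM1* UMI. *GRN* had a ratio of 0.580 (0.507 to 0.662) in lung, short of 2-fold, and of 0.310 (0.276 to 0.347) in aorta with no upper limit, where it was called lower. Under the limit it was also lower, at 0.289 (0.114 to 0.608) from 7 UMIs, but with 30 principal components it was higher, at 2.08. *CTSB* had a ratio of 0.673 in lung, and *LGALS3* of 0.772.

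*CTSH* went the other way in lung. Its level in lung collagen-high cells was 215 CPM (200.2 to 230.5) against 96.1 CPM in endothelial-like cells, a ratio of 2.24 (2.07 to 2.41). The 2 lung clusters of collagen-high cells differed in it. The cluster led by *WT1*, *IGFBP5* and *COL3A1*, genes of mesothelium and matrix, had 359 CPM (322 to 398), and the cluster led by *ACTG2*, *COL6A1* and *PDGFRB*, genes of smooth muscle, matrix and pericytes, 163 CPM (148 to 179). *LGALS3* showed the same order between the clusters, 197 and 80.6 CPM. In the aorta with no upper limit, *CTSH* was at 143 CPM in collagen-high and 111 CPM in endothelial-like cells, a ratio of 1.29 (1.20 to 1.38). *CTSD* was at 222 CPM in lung collagen-high cells, 1.35 times (1.26 to 1.45) the endothelial-like level. In aorta it was at 91.2 CPM from 17 UMIs under the limit, a ratio of 0.453 (0.260 to 0.739) that became 3.67 with 30 principal components, and at 171 CPM with no upper limit, a ratio of 0.890 (0.839 to 0.944).

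Counted together, 1 of the 7 members that reached 20 CPM was higher and 2 were lower in lung collagen-high cells. Over all genes, 6.66% were higher and 9.9% lower. In the aorta, 5 of 8 members were lower and 0 higher, against 16.5% lower and 16.1% higher of all genes in the 246 cells, and 12.6% and 7.98% in the 955. The 5 were *CTSS*, *CTSL*, *GRN* and *LAPTM5* in both forms, with *CTSD* as the fifth among the 246 cells and *CTSB* among the 955. With 30 principal components the count in the 246 cells turned over, with 4 members higher (*CTSB*, *CTSD*, *CTSL* and *GRN*) and 0 lower. *CTSL* had 0 UMIs in aorta collagen-high cells under the limit, at least 2.05-fold lower, and was at 12.3 against 35.3 CPM without it. The other lysosomal genes of the lung moved less. Of 9 glycosidases and sulfatases 1 was lower (*GUSB*, β-glucuronidase), of 13 V-ATPase subunits 0 were called, and of 9 sorting genes 1 was higher (*IGF2R*, the receptor for mannose 6-phosphate that carries enzymes to the lysosome). In the aorta with no upper limit, 4 of 11 glycosidases and sulfatases were lower, led by *FUCA1* and *IDUA*, and 0 of 14 V-ATPase subunits, against 6 of 10 and 6 of 14 under the limit.

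**Figure D2:**
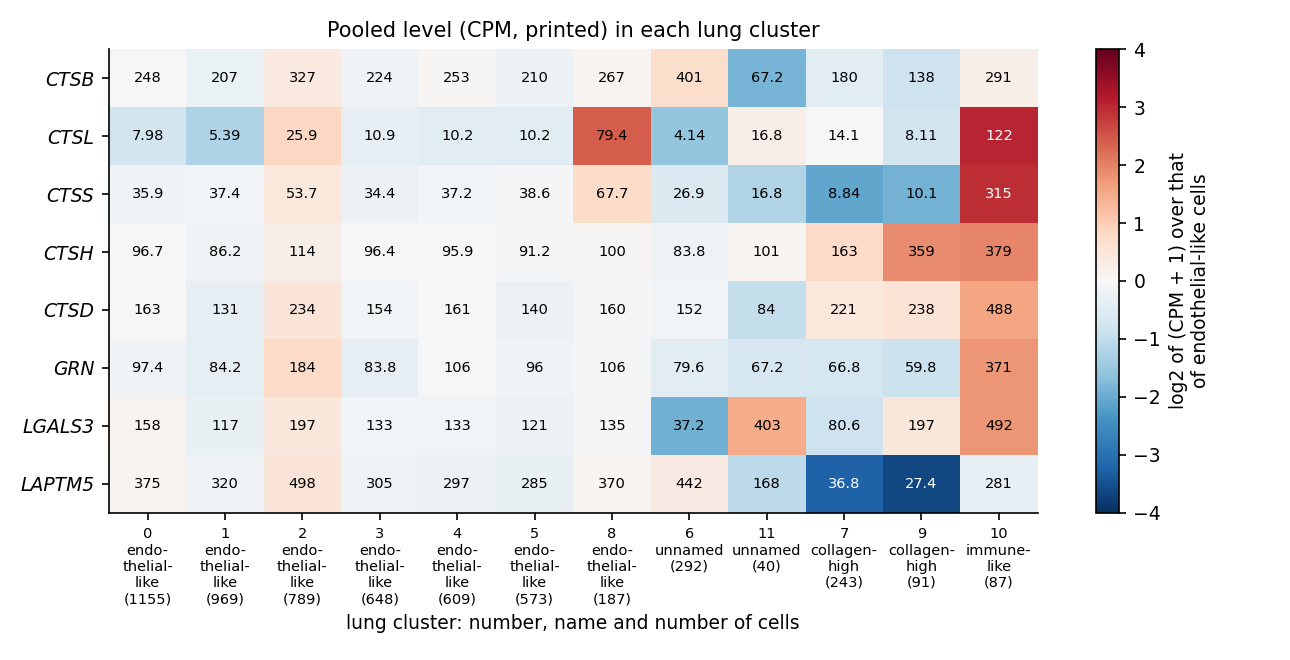
Level (CPM, printed in each cell) of the 8 genes in the 12 lung clusters, coloured by the log2 ratio of CPM + 1 to that of all endothelial-like cells; columns give the cluster number, its name from markers and its number of cells. Clusters 7 and 9 (collagen-high) stand out by low LAPTM5 and CTSS, cluster 8 by CTSL at 79.4 CPM and cluster 10 by high levels of most members.

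Cells with macrophage transcripts were then taken from all clusters as those with a UMI of *PTPRC* (the leukocyte antigen CD45), *AIF1* (a macrophage marker) or *C1QB* (a complement chain made by macrophages). There were 44 of them in lung. Their label did not hold for most. Of the 44, 26 lay in other clusters than the immune-like one and had 1 of the 3 genes, in 24 cells *AIF1*. In these 26, *CD68*, *TYROBP*, *FCER1G* and *LYZ* had 0 UMIs, *PECAM1* was at 990 CPM, and *CTSS* was at 9.14 CPM, below its endothelial-like level. However, 8 of the 26 lay in collagen-high cluster 7 and 2 in collagen-high cluster 9, and lung collagen-high cells had *CTSS* at 9.51 CPM. In contrast, 16 cells had 2 or all of the 3 genes, and all 16 of the measured macrophage markers were detected in them. These markers summed to 13890 CPM against 12.9 CPM in endothelial-like cells. The 3 genes that picked the cells are among these markers and had 0 UMIs in endothelial-like cells by construction, so part of this contrast was fixed in advance. In the 16 cells, endothelial markers summed to 1038 CPM, with *VWF*, *KDR* and *MMRN2* at 0, against 3240 CPM in endothelial-like cells. Neutrophil markers (4 of 4 detected) summed to 1126 CPM against 0.120 CPM, platelet markers (3 of 3) to 2102 CPM against 68.3 CPM, and T and NK cell markers (2 of 7) to 452 CPM against 0.159 CPM. The T and NK cell markers *CD3D*, *CD3E*, *CD3G*, *CD2* and *GZMB* and all 4 B and plasma cell markers were at 0 in them. In the aorta, 1 of the 246 cells and 28 of the 955 had a UMI of the 3 genes, in each case *AIF1*, and 0 had 2 of them.

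In the 16 lung cells, each member was at a higher level than in any class. *CTSS* was at 2484 CPM, a ratio of 61.7 (54.3 to 70.0) to endothelial-like cells, and 280 of the 291 *CTSS* UMIs of the 44 cells were in these 16. *CTSL* was at 958 CPM, a ratio of 68.5 (55.4 to 84.0), and its paralog *CTSV* at 62.1 CPM from 7 UMIs, a ratio of 0.298 (0.120 to 0.613), so the feature named CTSL was the one high in these cells. *CTSH* was at 2599 CPM (ratio 27.0), *LGALS3* at 3025 CPM (ratio 21.1), *CTSD* at 3016 CPM (ratio 18.4) and *GRN* at 1393 CPM (ratio 12.8). *CTSB* was 5.02 times (4.22 to 5.93) its endothelial-like level. *LAPTM5* was at 692 CPM, 1.97 times (1.56 to 2.46) that of endothelial-like cells, just short of the 2-fold threshold. Thus 7 of 8 members were called higher, where 17.8% of all genes were, and the median ratio was 19.7 against 0.875 over all genes. Over all 44 cells 6 of 8 were called, against 7.33% of all genes, with *CTSB* at 1.90 and *LAPTM5* at 0.941.

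The 16 cells were not alike. In 11 of them, the 8 genes made up 1.99% to 3.12% of the UMIs of the cell. In the other 5 they made up 0.254% to 0.741%, against 0.117% of all endothelial-like UMIs and at most 0.701% in a single endothelial-like cell. Of the 5 cells with a *PECAM1* UMI, 4 were among those with the low shares, with 13, 16, 32 and 1 *PECAM1* UMIs. *CTSS* ranged from 0 CPM in 1 cell to 7804 CPM, with a median of 3631 CPM, and *LAPTM5* from 0 CPM in 2 cells to 2307 CPM with a median of 635 CPM. Without the 5 cells that had a *PECAM1* UMI, the ratios to endothelial-like cells were higher for all 8 genes, 102 for *CTSS*, 123 for *CTSL* and 2.21 for *LAPTM5*, and 8 of 8 were called. Whether barcodes with both kinds of marker held more than 1 cell was not tested.

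**Figure D3:**
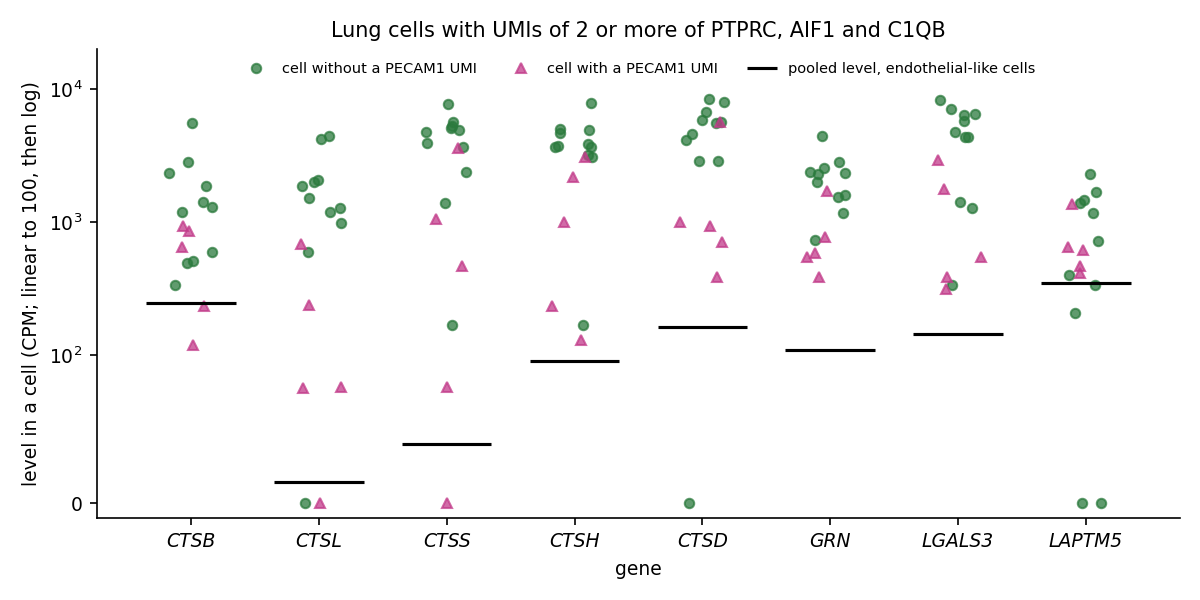
Level (CPM; axis linear to 100, then logarithmic) of the 8 genes in each of the 16 lung cells with UMIs of 2 or more of PTPRC, AIF1 and C1QB; triangles are the 5 cells with a PECAM1 UMI and black lines the pooled level of the 4912 endothelial-like cells. Most cells lie far above the line for CTSS, CTSH, CTSD and LGALS3, and on both sides of it for LAPTM5.

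Of the 16 cells, 14 were in 1 cluster of 87 lung cells, which had been named immune-like for its raised macrophage markers. The other cells of that cluster lacked the markers behind the name. In the 71 with none of the 3 genes, *C1QA*, *C1QC*, *CD68*, *TYROBP*, *FCER1G* and *LYZ* were at 0, all 14 endothelial markers were detected, and *PECAM1* was at 1250 CPM. Their *CTSS* level, 11.6 CPM (9 UMIs), was lower than in endothelial-like cells, with a ratio of 0.288 (0.131 to 0.547), and that of *GRN* higher, 232 CPM and a ratio of 2.13 (1.83 to 2.47). *LAPTM5* was at 225 CPM and *LGALS3* at 151 CPM, both within 2-fold. Of all genes, 11.9% were higher and 5.78% lower in these 71 cells. Of the 278 *CTSS* UMIs of the whole cluster, 261 were in its 14 cells with 2 or more of the 3 genes.

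Other genes of the lysosome were high in the 16 cells too, where 1144 of all 6418 genes called on (17.8%) were higher and 1330 lower. Of 8 genes for lipid breakdown, 7 were higher than in endothelial-like cells, led by *LIPA*, the acid lipase (284 against 7.25 CPM), and *GM2A*, an activator of ganglioside breakdown (115 against 10.0 CPM). Of 14 glycosidases and sulfatases, 9 were higher, led by the mannosidases *MAN2B1* and *MANBA*, and of 7 other acid hydrolases 6, led by *DNASE2* (319 against 8.89 CPM) and *SCPEP1*. *GPNMB*, a glycoprotein of the lysosomal membrane, was at 3122 CPM from 352 UMIs, and at 0.618 CPM in endothelial-like cells. *SLC11A1*, the metal transporter of macrophage phagosomes, had 29 UMIs against 0, 4302-fold higher with the 0 set at 3 counts. Of 14 V-ATPase subunits, 6 were higher, led by *TCIRG1* (284 against 25.9 CPM). Of 5 transcription factors of lysosomal genes, 3 were higher, among them *TFEC*, with 6 UMIs against 1, and *MITF*, with 5 UMIs behind it. Of 15 autophagy genes, 2 were higher and 2 lower, near the shares over all genes. The inhibitors split, with *CSTB* (cystatin B) at 4426 against 676 CPM and *SERPINB6* at 17.7 CPM (2 UMIs) against 78.5 CPM. Of 12 genes of the interferon response, 10 were higher.

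Among endothelial-like cells themselves, all 8 members had higher levels in the *SLPI*-high cluster than in the other endothelial-like cells. This held in lung and in the aorta with no upper limit, but not in the aorta under the limit. In lung this cluster held 785 endothelial-like cells and was led by *SLPI*, *CRYAB* and *CFD*, where *SLPI* encodes a secreted inhibitor of proteases. All 8 ratios to the other endothelial-like cells were above 1, from 1.23 for *CTSH* to 2.18 (1.85 to 2.57) for *CTSL*. At 1.5-fold, 4 were higher, *CTSL*, *GRN* (183 against 94.4 CPM), *CTSD* (234 against 151 CPM) and *LAPTM5* (498 against 323 CPM), where 4.76% of all genes were. In the aorta with no upper limit, the *SLPI*-high cluster was led by *CCL5*, *SLPI* and *CFD* and held 234 endothelial-like cells. All 8 members were at least 1.5-fold higher there, against 8.27% of all genes. Its *CTSL* level was 61.9 against 20.4 CPM, a ratio of 3.04 (2.70 to 3.42), that of *GRN* was 200.3 against 89.9 CPM, and *CTSH* had the smallest ratio, 1.51 (1.42 to 1.61).

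Some lists of other lysosomal genes had members at least 1.5-fold higher in the same clusters, where 4.76% of all genes were in lung and 8.27% in aorta. Of the glycosidases and sulfatases, 3 of 9 were higher in lung and 7 of 12 in aorta, of the lipases 2 of 5 and 4 of 6, and of the membrane proteins 2 of 8 and 3 of 8. Of the sorting genes, 0 of 9 were higher in lung and 1 of 9 in aorta, of the other acid hydrolases 0 of 2 and 2 of 4, and of the transcription factors 0 of 2 in each. Of the other cathepsins and legumain, 2 of 6 were higher in lung and 3 of 6 in aorta, and of the autophagy genes 4 of 15 and 4 of 14. Of the cathepsin inhibitors 2 of 4 were higher in each, and of the galectins 0 of 2 in each. *FUCA1*, which removes fucose, was at 131 against 65.4 CPM in lung and 202 against 94.8 CPM in aorta, and *CST3*, the secreted inhibitor cystatin C, at 1298 against 636 CPM and 2406 against 1326 CPM. Of the V-ATPase subunits, 0 of 13 in lung and 0 of 14 in aorta were called. Of the interferon list, 5 of 11 genes were higher and 1 lower in lung, and 11 of 13 were higher and 0 lower in aorta. The lower one in lung was *CXCL10*, at 11.2 against 26.0 CPM, which in aorta was at 208 against 16.6 CPM. *TOP2A*, a gene of dividing cells, was at 7.69 against 245 CPM in lung and 8.66 against 281 CPM in aorta. Their median mitochondrial share was 6.46% against 4.89% in lung and 7.24% against 5.88% in aorta, and their median depth was 9809 against 9515 and 53904 against 56588 UMIs. The part of cell division and of the interferon response in the levels of the members was not tested.

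The lung endothelial-like cluster with the highest *CTSL* level was another one. In the 187 cells of the cluster led by *CXCL10*, *RSAD2* and *DDX58*, genes of the interferon response, it was at 79.4 CPM against 11.6 CPM in the other endothelial-like cells, a ratio of 6.86 (5.67 to 8.26). *CTSS* was at 67.7 against 39.2 CPM, a ratio of 1.72 (1.42 to 2.07). The other 6 members had ratios from 0.940 for *LGALS3* to 1.08 for *CTSB*. At 1.5-fold, 2 of 8 members were higher, against 3.01% of all genes. *CTSV* had a ratio of 1.04 (0.941 to 1.16) here. The 14 genes of the interferon list were all higher, and *GM2A* (50.3 against 8.53 CPM) and *TCIRG1* (58.7 against 24.7 CPM) were the genes called among the lipases and the V-ATPase. *CXCL10* itself was at 548 against 4.26 CPM.

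**Figure D4:**
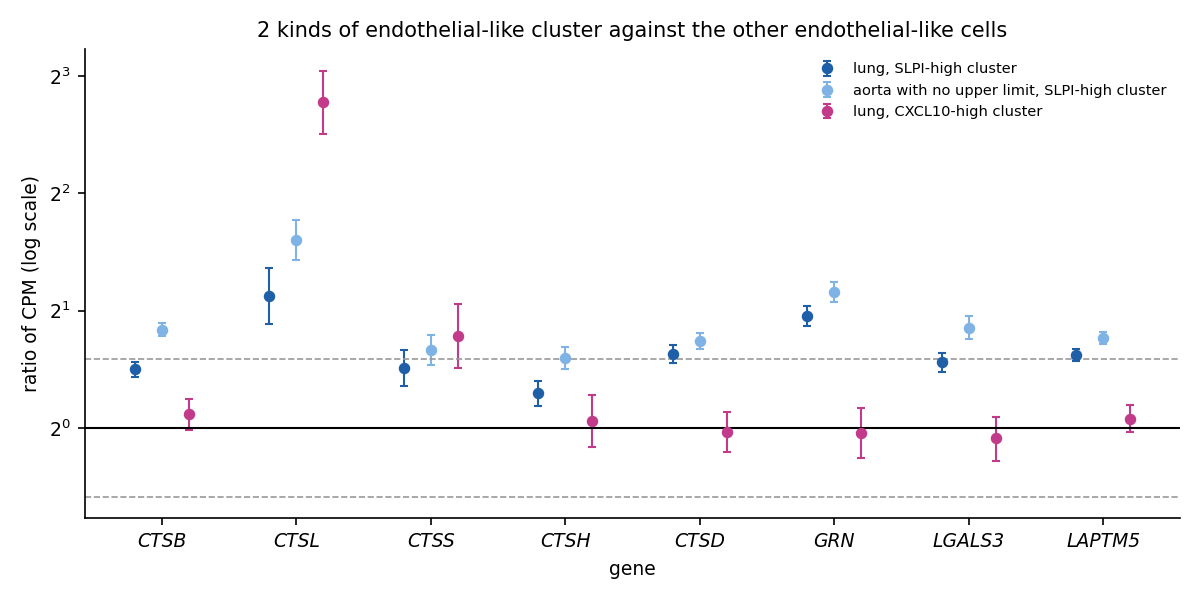
Ratio of CPM (log axis, with 95% intervals) of the 8 genes in the SLPI-high cluster of lung, the SLPI-high cluster of aorta with no upper limit and the CXCL10-high cluster of lung, each against the other endothelial-like cells of its library; dashed lines mark 1.5-fold. The SLPI-high clusters lie above 1 for each gene, and the CXCL10-high cluster stands apart for CTSL at 6.86 and CTSS at 1.72.

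The shallow aorta cells with almost no mitochondrial UMIs held few UMIs of most members. Among the 159 aorta endothelial-like cells, 54 had under 1% mitochondrial UMIs, with a median depth of 2458.5 UMIs against 8898 in the other 105. *CTSB* was at 94.1 against 429.9 CPM in them, a ratio of 0.219 (0.119 to 0.371), *CTSD* at 26.9 against 223 CPM and *LAPTM5* at 195 against 405 CPM. In all 5 of 8 members were lower by 2-fold, where 25.2% of all genes were. *LGALS3* was at 121 against 92.2 CPM, a ratio of 1.31 (0.75 to 2.17), while the other 7 members summed to 464 against 1437 CPM, a ratio of 0.323 (0.250 to 0.411). The aorta EndMT-like cells were a class of 65 with raised *ACTA2* and *TAGLN* and a median mitochondrial share of 0.104%. Endothelial transcripts were low in them, with *PECAM1* at 16.5 CPM and *CDH5* at 6.58 CPM, against 1091 and 218 CPM in aorta endothelial-like cells. The EndMT-like cells showed the same split. *LGALS3* was at 145 CPM, a ratio of 1.57 (1.08 to 2.25) to the 105 cells, and the other 7 summed to 65.8 CPM, a ratio of 0.0458 (0.0279 to 0.0710). There 7 of 8 members were lower, against 40.4% of all genes.

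In lung, the 39 cells under 1% had *LGALS3* at 354 against 144 CPM, a ratio of 2.47 (1.60 to 3.64). The sum of the other 7 members was 0.624 (0.455 to 0.836) of that in endothelial-like cells. *CTSB*, with 5 UMIs, and *LAPTM5*, with 11, were lower there, where 13% of all genes were. The 2 parts of the V-ATPase differed in the aorta cells with few mitochondrial UMIs, and less clearly in those of lung. The 8 subunits of its cytosolic V1 part summed to 1.89 (1.63 to 2.19) times the level of the other endothelial-like cells in the aorta cells under 1%, and the 7 genes of its membrane part and accessory proteins to 0.690 (0.497 to 0.937). In EndMT-like cells these ratios were 1.16 (1.02 to 1.33) and 0.255 (0.175 to 0.361). In the lung cells under 1% they were 1.33 (1.04 to 1.67) and 0.738 (0.468 to 1.11), and the last interval includes 1. The low mitochondrial share and the low depth of these cells move together, and their parts in these values cannot be told apart. For EndMT-like cells, the class itself is a further difference from endothelial-like cells, and its part cannot be told apart either.

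**Figure D5:**
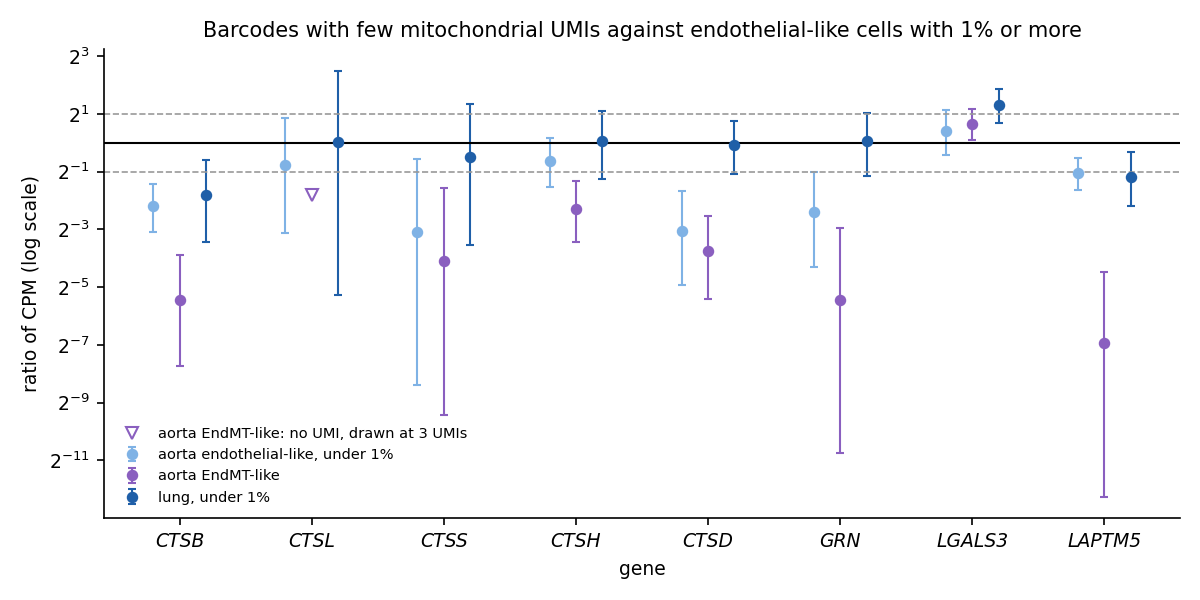
Ratio of CPM (log axis, with 95% intervals) of the 8 genes in 3 sets of barcodes with few mitochondrial UMIs against the endothelial-like cells with 1% or more of the same library; dashed lines mark 2-fold, and the open triangle is CTSL in EndMT-like cells, which had no UMI and is drawn at 3 UMIs. LGALS3 is the gene above 1 in each set, at 1.31, 1.57 and 2.47.

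For *LAPTM5*, *CTSS* and *CTSH*, the lung shares of cells with a UMI kept the order of the classes when depth was made equal. With every cell thinned to a common 5000 UMIs, *LAPTM5* was seen in 80.6% of 4813 lung endothelial-like and 10.6% of 303 lung collagen-high cells, against 94.1% and 14.8% before thinning, with 99 and 21 cells left out as too shallow. In the aorta with no upper limit, the thinned shares were 74.9% of 613 and 2.33% of 129 cells. *CTSS* was seen in 17.3% and 3.96% of thinned lung cells, *CTSH* in 37.4% and 55.8%. The order of the shares did not follow that of the levels for every member. In the aorta with no upper limit, *CTSB* had a UMI in 99.5% of endothelial-like and 100% of collagen-high cells at full depth, and in 72.6% and 54.3% when thinned, and *CTSD* in 98.5% and 96.9%, and in 61.2% and 62.0% when thinned. In lung, the thinned shares of *CTSL* were 4.90% and 7.26%, with levels of 14.0 and 12.5 CPM, so no order was read for it. *PECAM1* had a UMI in 35.5% of lung collagen-high cells at full depth, and the part of carried-over endothelial transcripts in the shares of the members was not tested.

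Finally, the genes most like each member were listed by Pearson's r of log2(CPM + 1), over 5039 genes. The 16 clusters used were those of both libraries under the limits of the methods. They include clusters with median mitochondrial shares of 0.226% and 0.0987% in aorta and 0.171% in lung, whose part in the r values was not tested. The clusters share libraries and depth, and no test was made. Nearest to *LAPTM5* were *FAM69B*, *NPDC1* and *TIE1*, the last an endothelial receptor, with r from 0.983 to 0.986. *CTSB* lay nearest to *PSAP* (r = 0.991), which encodes the precursor of the saposins, *GRN* to *SDF2L1* (r = 0.979) and *PLD3* (r = 0.963) and *CTSD* to *CPEB4* (r = 0.956). *CTSL* had *CCL5* (r = 0.880) among its nearest 3 genes, and *CTSH* had *STOM* first (r = 0.884). *CTSS* had *OGFOD1* (r = 0.904) and *SRGN* (r = 0.895), and *LGALS3* had *SCAND1* (r = 0.873). Among the members, *CTSS* was most like *GRN* (r = 0.846), and *CTSH* and *LAPTM5* were least alike of the pairs with *LAPTM5* (r = 0.0320).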

How the data were processed

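Cultured lung and aorta ECs were measured by 3′ single-cell RNA-seq, 1 library each. The authors deposited counts, the UMIs per gene and cell given by Cell Ranger 3.0.2 with Ensembl Sscrofa11.1 (version per the submitters' processing notes) before the cell limits of the methods. Of 22804 features, 14983 carried a name, 1051 took one from a table of gene names and 6770 kept their identifier. The cell number stated for the aorta lies between the 246 that the stated limits left and the 955 left with no upper limit. The mitochondrial share used the 12 genes of the methods.

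Each library was clustered with Seurat 5.3.0 in R 4.3.3 (2000 variable genes, of which 1944 in lung and 1968 in aorta were left after members and markers had been taken out, 20 principal components, resolution 1). A marker counted as raised at 20 CPM and 2-fold over the rest of the library, an endothelial marker as held at 0.25 of the highest cluster, 3 markers were needed for a name, and a shallow cluster without its own markers among its top genes stayed unnamed. The members, lists and classes were chosen with earlier results of these data known, and the naming thresholds after marker levels had been seen. Scrublet, run in scanpy 1.11.5, called 3 aorta cells (1.22%) and 2 lung cells (0.0352%). The share in lung is too low to take as a working call of doublets, whose number there is unknown, and all cells were kept. A count of 0 was set at 3 counts in ratios. Python 3.11.15, numpy 2.4.6, scipy 1.17.1 and pandas 2.3.3 were used, and the comparison was tested on simulated data. Named genes were all members, the 2 genes of a list with the largest fold among those called, the 3 genes most like a member (Pearson's r, at 50 CPM or more in 1 cluster), the 3 leading genes of a cluster and the markers. *CTSV* was added because of its name, and *GM2A* in the interferon-high cluster and the platelet and neutrophil lists were described after their values were seen. The split of the V-ATPase into 2 parts was not among the planned lists. With 1 library per condition, no test, p-value or SD was computed.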

Additional observations from a re-analysis of the deposited data

Results flagged for a closer look

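*CTSD* had opposite directions in the 2 libraries when collagen-high cells were set against endothelial-like cells, with a ratio of 1.35 (1.26 to 1.45) in lung and 0.453 (0.260 to 0.739) in aorta under the limit on detected genes. The aorta value rests on 17 UMIs in 21 cells, and with no upper limit the aorta ratio was 0.890 (0.839 to 0.944). With 30 principal components the aorta ratio was 3.67, in the same direction as in lung. The difference was not tested, since each tissue had 1 library.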

How the results depend on the processing

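Under 17 other settings (limits on cells, clustering, CPM scale, thresholds, thinning, macrophage cells, Scrublet scores), the counts of members past 2-fold in lung collagen-high (3) and lung macrophage-transcript cells (6) stayed within 1.5 times under each, as they did under the 2 settings added after seeing the data, leaving out cells with a *PECAM1* UMI from the collagen-high cells (3) or from cells with 2 macrophage genes (8). For lung against aorta endothelial-like cells, the count of 1 became 2 with 30 principal components, 0 with a 50 CPM filter, 3 at 1.5-fold and 0 at 3-fold. For aorta collagen-high cells, the count of 5 became 3 at 3-fold, and with 30 principal components it was 4, all higher in place of lower. With 30 principal components, the aorta classes themselves changed, to 70 endothelial-like and 101 collagen-high cells, and ratios turned over. *CTSL* in lung against aorta endothelial-like cells was then 1.46, *CTSB* 2.25 and *CTSD* 2.86, and in aorta collagen-high against endothelial-like cells *CTSB* was 3.79, *CTSD* 3.67, *CTSL* 3.40, *GRN* 2.08 and *LAPTM5* 1.51. With 10 components that *CTSL* ratio was 1.25. The cause was not tested beyond the changed classes. Apart from reversals, single ratios of members moved past their counting interval in 8 cases in aorta collagen-high cells, 13 in the endothelial-like comparison, 6 in lung collagen-high and 33 in macrophage-transcript cells. No paired analysis was possible because each condition had 1 library. With 1 library per tissue, differences between pigs or cultures cannot be told apart from those between tissues, and in classes of 21 or fewer cells most member levels rest on few UMIs.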
